A study of Homo sapiens with 8 samples.

Results

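HCT-116 is a long-established line of human colorectal cancer cells, and its state before any drug was described from the libraries of cells that received DMSO in both treatment steps. These were 2 of the 8 libraries of the series, replicates 1 and 2 of that group, chosen by their titles alone. Cells in serum-containing medium were first exposed for 12 h to the solvent DMSO or to 5-fluorouracil at 40 µM. After washes, DMSO or 3-MB-PP1 at 2.5 µM followed for 4 h. The 4 groups of 2 libraries were therefore vehicle (DMSO then DMSO), 5-fluorouracil then DMSO, DMSO then 3-MB-PP1, and 5-fluorouracil then 3-MB-PP1, and the 6 libraries of the 3 drug groups served here as reference. 5-Fluorouracil is an antimetabolite that blocks thymidylate synthase, and 3-MB-PP1 is a bulky kinase inhibitor that acts on kinases engineered to accept it. The series title names Cdk7, but the kinase allele carried by the cells of any group is not stated in the labels, and all groups are 1 cell line. Total RNA was depleted of rRNA and sequenced from a single end.

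HCT-116 is known for a defect in DNA mismatch repair and for activating alleles of PIK3CA and CTNNB1 (which encodes β-catenin, the effector of WNT signalling). Normal colon crypts hold WNT-dependent stem cells at the base, and their progeny differentiate into absorptive colonocytes and secretory goblet and enteroendocrine cells as they move up. In colorectal tumours many genes with CG-rich promoters are silenced by DNA methylation, and some germline genes that are normally methylated come on. These facts are background, and no allele or methylation state was measured here.

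The vehicle libraries held 12775401 and 13296066 counts over 23545 genes, within a range of 10458405 to 49921051 over all 8 libraries. Levels are given as RPKM, reads scaled by transcript length and by the total of the library, with vehicle replicate 1 first and replicate 2 second. A gene was called expressed at an RPKM of at least 1 in both vehicle libraries and silent at 0 counts in both. By these rules 12879 genes (54.7%) were expressed, 4960 (21.1%) were silent, and 5706 lay between. Of the expressed genes 88.1% agreed within 1.2-fold between the libraries and 59 differed by more than 2-fold. The SD of the log2 ratio of the libraries was 0.21 over expressed genes and 0.26 at a mean RPKM from 1 to 10. Counts differed between the replicates by more than sampling noise, with a chi-square per degree of freedom of 2.22. The labels number the replicates without saying whether they were separate cultures, so that spreads and p-values measure only the spread between these samples.

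Promoters of chosen expressed genes, not those at the top of the ranking, are shown beside promoters of silent genes to let them be compared by sequence. The first set runs from 120 bases before to 30 bases after the RefSeq transcript start (assembly GRCh38.p14), 5′ to 3′ on the gene's strand, with each CG dinucleotide in capitals. MAGEB2, a germline antigen gene at 91.3 and 86.8 RPKM (chrX:30215443-30215592, plus strand), is paired with its silent neighbour MAGEB1 (chrX:30243611-30243760, plus strand). DKK1, a secreted WNT inhibitor at 197 and 213 RPKM (chr10:52314161-52314310, plus strand), is paired with WIF1, a secreted WNT inhibitor at 0 counts (chr12:65121276-65121425, minus strand). The homeobox gene HOXA9, at 29.0 and 30.2 RPKM (chr7:27165508-27165657, minus strand), is paired with HOXD13 at 0 counts (chr2:176092601-176092750, plus strand). KLF5, a transcription factor of crypt cells at 29.2 and 28.4 RPKM (chr13:73054856-73055005, plus strand), is paired with LGALS4, a galectin of colonocytes at 0 counts (chr19:38812916-38813065, minus strand).
MAGEB2: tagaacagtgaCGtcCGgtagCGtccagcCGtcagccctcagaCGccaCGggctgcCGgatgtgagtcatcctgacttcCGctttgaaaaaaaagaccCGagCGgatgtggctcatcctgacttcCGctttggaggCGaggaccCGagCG
MAGEB1: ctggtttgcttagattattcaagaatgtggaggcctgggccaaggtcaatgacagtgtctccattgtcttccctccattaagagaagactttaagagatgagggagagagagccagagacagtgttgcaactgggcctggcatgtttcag
DKK1: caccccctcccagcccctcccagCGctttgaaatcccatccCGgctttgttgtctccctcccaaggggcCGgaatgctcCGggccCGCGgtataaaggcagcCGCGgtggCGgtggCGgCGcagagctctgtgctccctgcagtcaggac
WIF1: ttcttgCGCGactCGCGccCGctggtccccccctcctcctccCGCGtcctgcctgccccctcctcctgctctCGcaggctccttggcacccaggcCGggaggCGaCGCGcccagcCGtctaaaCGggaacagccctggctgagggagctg
HOXA9: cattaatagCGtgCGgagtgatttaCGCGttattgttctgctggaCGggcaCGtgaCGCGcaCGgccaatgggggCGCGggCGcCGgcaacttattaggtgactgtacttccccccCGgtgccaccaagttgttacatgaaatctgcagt
HOXD13: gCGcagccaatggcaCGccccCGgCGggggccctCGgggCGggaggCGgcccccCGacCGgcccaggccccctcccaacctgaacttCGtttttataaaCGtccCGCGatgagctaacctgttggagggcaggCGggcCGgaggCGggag
KLF5: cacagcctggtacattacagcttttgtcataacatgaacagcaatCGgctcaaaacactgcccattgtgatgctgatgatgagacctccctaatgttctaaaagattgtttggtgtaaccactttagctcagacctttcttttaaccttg
LGALS4: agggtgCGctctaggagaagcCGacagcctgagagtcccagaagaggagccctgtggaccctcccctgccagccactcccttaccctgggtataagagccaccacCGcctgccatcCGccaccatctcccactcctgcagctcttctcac

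In these 150 bases MAGEB2 held 14 CG and MAGEB1 held 0, while DKK1 held 11 and the silent WIF1 held 14. HOXA9 held 14 and the silent HOXD13 held 16, and KLF5 held 1 and LGALS4 held 4. In the build hg19 of the deposited tables MAGEB2 lay at chrX:30233675-30238206, MAGEB1 at chrX:30261848-30270155, DKK1 at chr10:54074041-54077417 and WIF1 at chr12:65444404-65515346. HOXA9 lay at chr7:27202057-27205149, HOXD13 at chr2:176957532-176960666, KLF5 at chr13:73633142-73651676 and LGALS4 at chr19:39292311-39303740. The number of CG ran with the level in the MAGEB2 pair and against it in the DKK1 and HOXA9 pairs. For KLF5 the printed start and the start of the counted transcript do not appear to be the same. The level quoted for KLF5 may therefore belong to another start, and no direction is given for its pair.

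Across all genes the CG content of the promoter and the level were related. The search covered the 16299 promoters of RefSeq's table that matched a gene, each of 300 bases from 250 before to 50 after the start, and CG reads the same on both strands. Of all protein-coding promoters 74.2% held 10 or more CG. The share was 34.8% over 2361 silent protein-coding genes, 55.8% over 3240 genes between silent and expressed, and 85.9% over 4284 genes at 1 to 10 RPKM. It was 94.1% over 4580 genes at 10 to 100 RPKM and 95.0% over 565 genes at 100 RPKM or more. The motif TATAAA, searched on both strands of the same 300 bases, was present in 9.44% of all protein-coding promoters. It was found in 21.1% of silent genes, in 5.28% of genes at 1 to 10 RPKM, in 4.30% at 10 to 100 RPKM, and in 14.3% at 100 RPKM or more, so that both ends of the ranking held it more often than the middle. These shares describe letters in a window and say nothing of a bound factor.

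**Figure D1:**
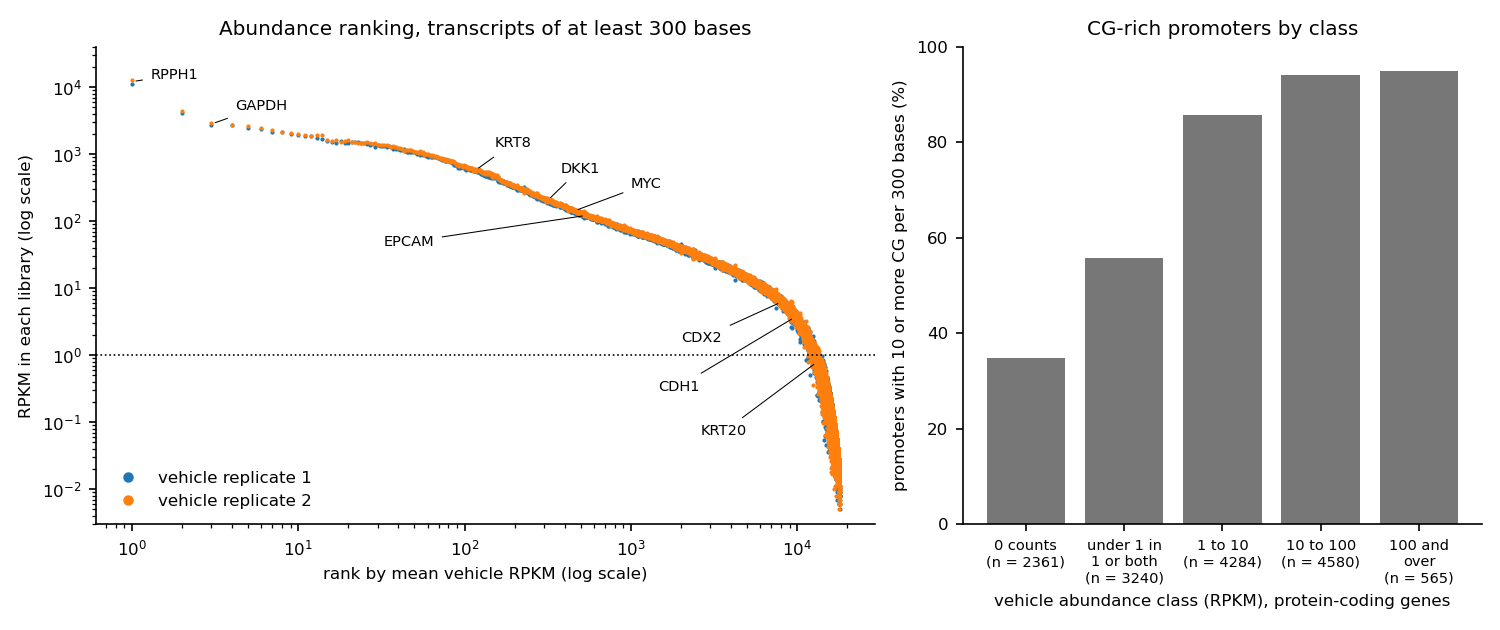
Left, RPKM in each vehicle library (log axis) against rank by mean vehicle RPKM (log axis) for kept transcripts of at least 300 bases, with the expression threshold of 1 RPKM dotted and genes at 0 left out; the libraries trace the same curve down to about that threshold and spread below it. Right, share of protein-coding promoters with 10 or more CG per 300 bases in 5 abundance classes, which runs from 34.8% in silent genes to 95.0% at 100 RPKM or more.

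The top of the ranking belonged to structural RNAs and to the translation machinery. RPPH1, the RNA of ribonuclease P, ranked first among transcripts of at least 300 bases with 11342 and 12943 RPKM. MTRNR2L4, a nuclear copy of the mitochondrial large rRNA gene whose reads cannot be told apart from those of its source, followed with 4190.0 and 4465 RPKM. The next were GAPDH, the glycolytic glyceraldehyde phosphate dehydrogenase, with 2717 and 2938 RPKM, and EEF1A1, which brings tRNA to the ribosome, with 2718 and 2738 RPKM. GAPDH and EEF1A1 overlapped between the libraries and had no order. RPS2 (2439 and 2664), RPS18 (2371 and 2446), PTMA (2161 and 2311), RPS12 (2188 and 2149), RPL7 (2007 and 2059) and NPM1 (1948 and 2040.4) completed the first 10, in RPKM. PTMA encodes the chromatin-associated prothymosin α and NPM1 a nucleolar histone chaperone.

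RNA was spread over few genes. In the 2 libraries 432 and 412 genes held 50% of the RPKM of transcripts of at least 300 bases, and 5080 and 4970 genes held 90% of it. The 10 most abundant genes took 7.75% ± 0.22 (SD, n = 2), and the 100 most abundant took 28.9% and 29.4%. With shorter transcripts counted in, the 10 most abundant took 11.6%. At the other cut points 6367 genes reached 10 RPKM in both libraries, 710 reached 100 RPKM and 62 reached 1000 RPKM. Transcripts under 300 bases are ranked apart, since size selection acts on them. Their highest was RMRP, the RNA of the ribonuclease MRP, with 27663 and 22813 RPKM over 268 bases. Several microRNA entries near it lay inside exons of abundant genes and counted reads of those genes, such as MIR4426 inside RPS27A and the MIR1244 copies inside PTMA.

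Of the 100 most abundant genes 60 encoded ribosomal proteins, 4 were glycolytic and 6 were in the list of translation factors. That list also holds NPM1, NCL and TPT1, which are not translation factors in the strict sense. All 79 cytoplasmic ribosomal protein genes were expressed, with a median of 982 RPKM against 1.87 RPKM over all genes. Their RPKM summed to 78464 and 81828 of 502917 and 510658 over all genes. RPL21 and RPL13A share reads with the near-identical copies RPL21P28 and RPL13AP5, so the levels of those genes are uncertain. All 31 genes of the translation factor list were expressed as well, with a median of 217 RPKM. EEF1A2, the elongation factor form usual for muscle and neurons, stood at 179 and 184 RPKM, below EEF1A1 in both libraries. EIF4A1, the helicase of cap-dependent initiation, stood at 720.3 and 759.7 RPKM and its relative EIF4A2 at 159 and 148 RPKM.

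Ribosomal protein genes are known for a pyrimidine tract at the transcript start, through which their translation is controlled. The 20 bases on either side of the RefSeq start (GRCh38.p14) are printed for the 6 most abundant such genes found in the promoter table. The longest run of C and T is in capitals, wherever it lies in this stretch. They are RPS18 (chr6:33272055-33272094, plus strand), RPS12 (chr6:132814549-132814588, plus), RPL12 (chr9:127451387-127451426, minus), RPL38 (chr17:74203658-74203697, plus), RPS6 (chr9:19380217-19380256, minus) and RPL19 (chr17:39200263-39200302, plus).
RPS18: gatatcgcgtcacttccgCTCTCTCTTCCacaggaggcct
RPS12: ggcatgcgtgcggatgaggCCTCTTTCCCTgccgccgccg
RPL12: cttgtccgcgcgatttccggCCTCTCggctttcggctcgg
RPL38: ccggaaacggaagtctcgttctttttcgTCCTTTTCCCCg
RPS6: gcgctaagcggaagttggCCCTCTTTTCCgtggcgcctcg
RPL19: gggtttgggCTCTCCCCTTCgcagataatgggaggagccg

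The longest run was 11 bases in 5 of the 6 and 6 bases in RPL12. In RPL19 it lay before the start and in RPL38 it began after the start. The length of the longest run is therefore not a measure of a tract at the start itself. Over the 63 ribosomal protein genes with a promoter in the table the median longest run was 11 bases, and 73.0% held a run of 10 or more. Over all protein-coding promoters the median was 5 bases and 8.39% held such a run, read on the gene's strand within the same 40 bases.

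**Figure D2:**
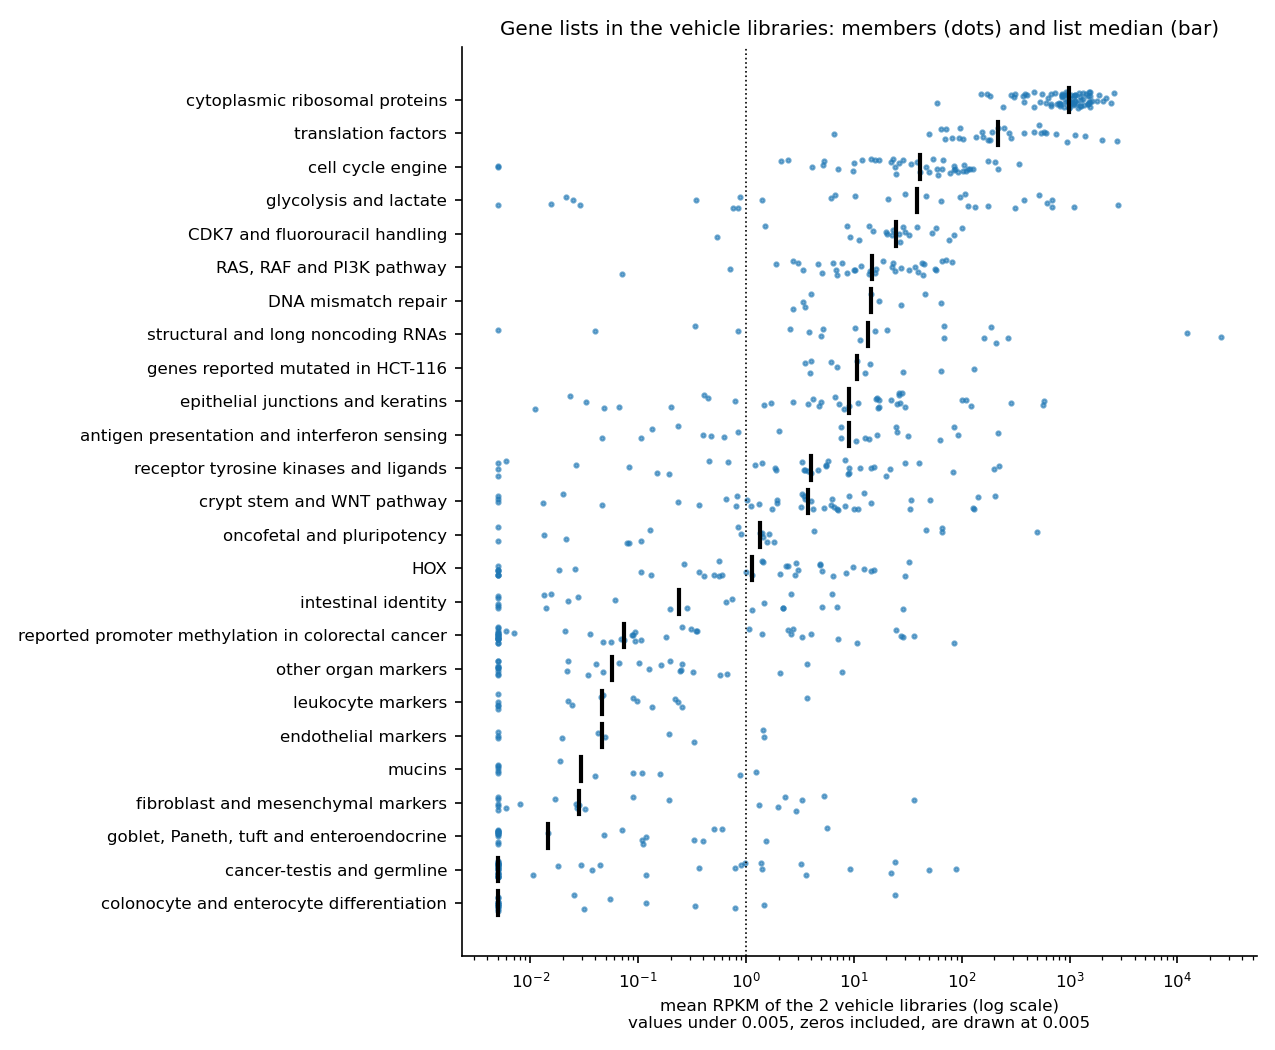
Mean RPKM of the 2 vehicle libraries (log axis) for every measured member of 25 gene lists, one dot per gene and a bar at each list's median, with the threshold of 1 RPKM dotted. Ribosomal proteins have the highest median (982 RPKM) and the differentiation and germline lists have medians of 0.

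Glycolytic enzymes were abundant in both libraries. Of 30 glycolysis and lactate genes 21 were expressed, with a median of 38.2 RPKM. Below GAPDH came ENO1 (enolase) with 1068 and 1150.1 RPKM, PKM (pyruvate kinase, listed as PKM2) with 677 and 687 RPKM, and TPI1 (triosephosphate isomerase) with 615 and 613 RPKM. LDHB, the lactate dehydrogenase subunit of oxidative tissues, stood at 689.7 and 696 RPKM and LDHA, the subunit of glycolytic tissues, at 374 and 377 RPKM. The subunits did not overlap. The glucose transporter SLC2A1 (GLUT1) stood at 94.2 and 98.3 RPKM, while hexokinase HK1 stood at 20.1 and 21.5 RPKM and HK2 at 10.3 and 10.2 RPKM. The liver and testis forms PKLR, SLC2A2 and LDHC were under 1 RPKM.

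Epithelial identity was checked on 39 genes of cell junctions and keratins, of which 30 were expressed and none was silent, with a median of 9.09 RPKM. The simple-epithelial keratins led. KRT8 (hg19 chr12:53290971-53343650) stood at 559 and 591 RPKM and KRT18, its partner in the filament, at 569 and 573 RPKM, ranks 116 and 118 of the transcripts of at least 300 bases. KRT8 and KRT18 overlap on opposite strands, and whether the counting used strand is not given in the sources used here. KRT19 stood at 269.8 and 299 RPKM, and EPCAM, the adhesion molecule that marks epithelial cells, at 121 and 124 RPKM. Of these 4 genes KRT19 differed most between the libraries.

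Other epithelial genes were low against these markers. CDH1, which encodes E-cadherin, stood at 3.75 and 3.70 RPKM, rank 9719. Its catenin partners CTNNA1 (98.5 and 101 RPKM) and CTNND1 (25.5 and 28.0 RPKM) were higher in both libraries. ESRP1, an epithelial splicing factor, stood at 16.1 and 15.9 RPKM. GRHL2, a transcription factor that maintains E-cadherin, was under the threshold with 0.35 and 0.47 RPKM. CLDN7 led the claudins with 15.7 and 17.0 RPKM, while CLDN1 had 0.022 and 0 RPKM. The squamous keratins KRT5 and KRT14 were at 0.065 RPKM or less.

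Only part of the intestinal programme was detected. Of 24 intestinal identity genes 9 were expressed and 5 were silent, with a median of 0.24 RPKM. KLF5 was the highest, followed by KLF4 with 6.26 and 7.77 RPKM. CDX2, the homeobox regulator of intestinal fate, stood at 5.90 and 6.65 RPKM. CDX2 overlapped with KLF4 and lay below KLF5 in both libraries. HNF4A, a nuclear receptor of absorptive cells, was under the threshold with 0.24 and 0.33 RPKM, and so were the cell-surface cadherin CDH17 (0.84 and 0.64 RPKM) and the microvillus protein VIL1 (0.028 and 0.027 RPKM). CDX1, GATA4, GATA5, LGALS4 and PHGR1 were silent. For LGALS4 a count of 0 allows up to 3 counts, an RPKM of 0.18 in replicate 1 and 0.17 in replicate 2, counting error alone.

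Differentiated cells of the colon were nearly absent from the profile. Of 20 colonocyte and enterocyte genes 2 were expressed and 12 were silent, the latter with the transport, hormone and brush-border genes CA4, AQP8, GUCA2A, GUCA2B, FABP1 and SI among them. The expressed members were CA2, a carbonic anhydrase, with 24.0 and 24.5 RPKM, and the peptidase DPP4 with 1.52 and 1.43 RPKM. KRT20, the keratin used to mark colorectal origin in pathology, straddled the threshold with 1.05 and 0.54 RPKM. Of 23 goblet, Paneth, tuft and enteroendocrine genes 2 were expressed, lysozyme (LYZ, 5.33 and 5.84 RPKM) and the goblet lectin ZG16 (1.31 and 1.73 RPKM), and 10 were silent. SPDEF, TFF3, AGR2 and REG4 of the goblet lineage were silent and MUC2, the main secreted mucin, had 0 and 0.0090 RPKM. Among 12 measured mucins MUC1 alone was expressed, with 1.12 and 1.38 RPKM, and MUC20 joined it at a threshold of 0.5 RPKM. In a bulk library, fewer cells of a type and less RNA per cell cannot be told apart.

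WNT pathway genes ranged from regulators over 100 RPKM to stem-cell markers with at most 1 count in a library. Of 42 crypt stem and WNT genes 29 were expressed and 3 were silent, with a median of 3.77 RPKM. DKK1 was the highest, followed by MYC, the growth-promoting transcription factor and WNT target, with 132 and 153 RPKM, CTNNB1 with 129.0 and 129.6 RPKM, and cyclin D1 (CCND1) with 119.7 and 135 RPKM. CD44, an adhesion receptor of crypt cells, stood at 50.2 and 52.1 RPKM, and SOX9, a regulator of crypt progenitors, at 13.6 and 15.2 RPKM. The feedback genes RNF43 (11.8 and 9.77 RPKM), AXIN2 (5.58 and 4.91 RPKM) and ZNRF3 (4.12 and 4.22 RPKM) were moderate.

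Genes that mark normal crypt stem cells were found at both ends of that list. LGR5, the receptor that defines these cells, had 0 and 0.026 RPKM, and ASCL2, their transcription factor, had 0 and 0.040 RPKM. OLFM4 and SMOC2, further markers, and LEF1, a partner of β-catenin on DNA, were silent. Of the DNA-binding partners TCF7L2 stood at 34.4 and 31.8 RPKM and TCF7 at 7.23 and 7.04 RPKM, while TCF7L1 stood at 1.78 and 0.87 RPKM. PROM1 (CD133), a marker of tumour stem cells, stood at 10.2 and 9.69 RPKM. Of the other stem-cell markers BMI1, a Polycomb protein, stood at 33.0 and 34.8 RPKM, LRIG1, an inhibitor of EGF receptors, at 1.63 and 2.27 RPKM, and MEX3A, an RNA-binding protein, at 1.06 and 1.16 RPKM.

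**Figure D3:**
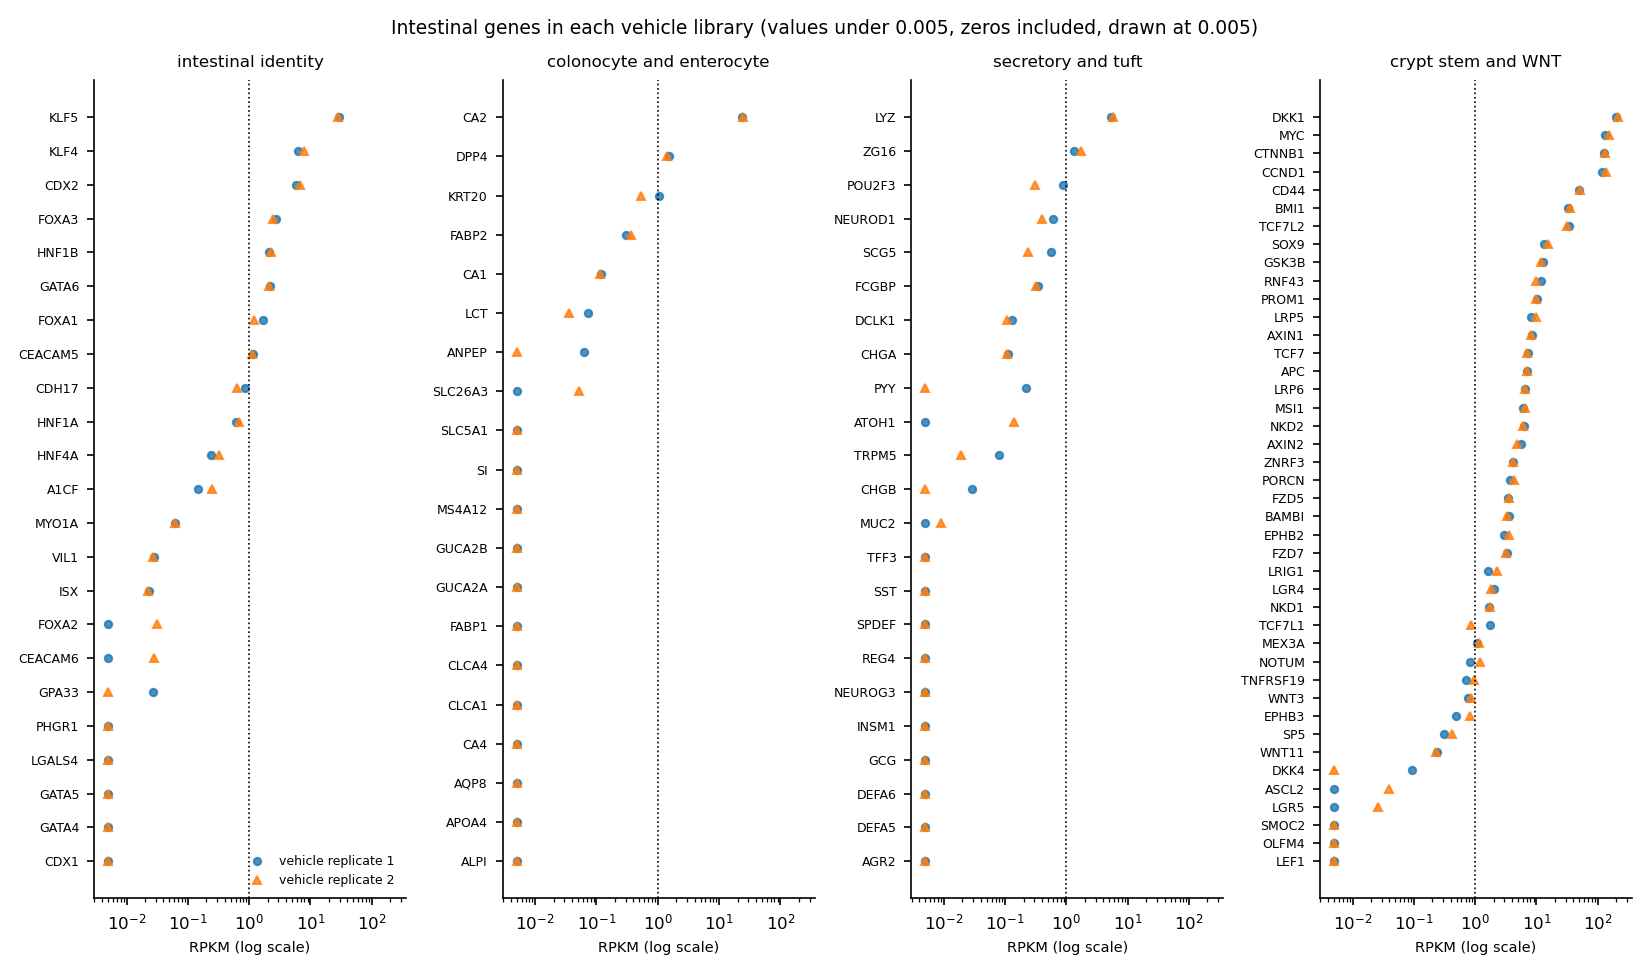
RPKM in vehicle replicate 1 (circles) and replicate 2 (triangles), on a log axis, for members of the intestinal identity, colonocyte and enterocyte, secretory and tuft, and crypt stem and WNT lists, with the threshold of 1 RPKM dotted and values under 0.005 drawn at 0.005. KLF5, CA2, LYZ and DKK1 lead their lists, and 12 of 20 colonocyte and enterocyte genes have no count in either library.

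The genes reported as mutated in HCT-116 were all transcribed. All 11 exceeded 1 RPKM in both libraries, with a median of 10.8 RPKM. PIK3CA stood at 7.06 and 6.95 RPKM, CDKN2A (a CDK4 inhibitor) at 27.2 and 29.8 RPKM, and TGFBR2 (the TGF-β receptor) at 6.15 and 6.08 RPKM. All 9 genes of the mismatch repair list were expressed, and MSH6 (63.7 and 64.0 RPKM), a subunit that recognises mismatches, was the highest. The list also holds MGMT, a gene of another repair pathway. The RNA level carries no information on the protein or on which allele was read.

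Growth-factor signalling genes were present on both the ligand and the receptor side. Of 37 receptor tyrosine kinases and ligands 27 were expressed and 3 were silent. The ligands EREG (220.0 and 222 RPKM) and AREG (184 and 212 RPKM), which activate the EGF receptor, were the highest of the list, and EREG was above AREG in both libraries. Of the receptors, MET stood at 82.3 RPKM in both libraries, EPHA2 at 38.0 and 42.3 RPKM, ERBB2 at 14.5 and 15.9 RPKM and EGFR at 9.06 and 8.79 RPKM. ERBB4, KIT and HGF, the ligand of MET, were silent. AREG was listed at 2 places in the genome. Of 36 RAS, RAF and PI3K genes 34 were expressed. DUSP6, a feedback phosphatase of the pathway, was the highest with 73.3 and 88.2 RPKM, and the GTPases NRAS (42.3 and 45.3 RPKM) and HRAS (41.1 and 44.9 RPKM) overlapped.

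Cell cycle genes were expressed almost throughout, 43 of 45, with a median of 41.2 RPKM. PCNA, the sliding clamp of DNA polymerase, stood at 344 and 339 RPKM, CDC20, the activator of the anaphase ligase, at 207 and 225 RPKM, and CCNB1, the mitotic cyclin, at 179 and 174 RPKM. All 6 MCM helicase genes lay between 59.9 and 206 RPKM in both libraries. Cyclin D2 (CCND2) and the germline cyclin CCNA1 were silent, so that CCND1 and CCND3 (16.2 and 17.6 RPKM) were the D-type cyclins detected. MKI67, the proliferation marker, stood at 38.7 and 38.5 RPKM.

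Genes tied to the drugs of the series were expressed before any drug, 21 of 22. CDK7, a kinase of transcription initiation that also activates cell cycle kinases, stood at 51.4 and 53.4 RPKM, and its partners CCNH and MNAT1 at 30.4 and 33.9 RPKM and at 28.9 and 30.3 RPKM. CDKN1A, an inhibitor of cell cycle kinases, stood at 82.7 and 85.2 RPKM, and MDM2, a ubiquitin ligase, at 58.7 and 55.7 RPKM. TYMS, the thymidylate synthase blocked by 5-fluorouracil, stood at 72.7 and 78.0 RPKM. TYMS overlaps ENOSF1 on the opposite strand, where reads cannot be assigned without strand. DPYD, which breaks 5-fluorouracil down, was the member under the threshold, with 0.46 and 0.60 RPKM.

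Genes reported as methylated at their promoters in colorectal cancer were silent in 16 of 49 cases (32.7%, against 21.1% of all genes), and 14 were expressed. The silent members included the secreted WNT antagonists SFRP1, SFRP2, SFRP4, WIF1 and DKK2, the transcription factors GATA4, GATA5, CDX1 and NEUROG1, the guidance receptor DCC and the cadherin CDH13. The tumour suppressor CDKN2A was expressed, as was MGMT, a DNA repair gene, with 2.65 and 2.83 RPKM. VIM, whose methylation is used as a marker of the disease, stood at 36.9 and 34.6 RPKM. Of the 8 silent members with a listed promoter 7 held 10 or more CG, against 34.8% of silent protein-coding genes. As seen in its printed sequence, WIF1 was among these silent members with a CG-rich start. Of the expressed members 10 of 12 did, against 85.9% to 95.0% in the expressed protein-coding classes. In all 27 of 32 members did, against 74.2% of all protein-coding promoters. The list was chosen for reported promoter methylation, so these shares are no independent support.

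Germline genes were mostly silent, with a few at high levels. Of 41 cancer-testis and germline genes 22 were silent and 9 were expressed, and the median was 0. MAGEB2 was the highest, rank 778, followed by MAGEA3 (49.9 and 49.6 RPKM), MAGEA6 (23.9 RPKM and 24.0 RPKM), MAGEA2 (22.1 and 22.4 RPKM) and PRAME, an antigen and repressor of retinoic acid signalling (10.3 and 8.20 RPKM). MAGEA3, MAGEA6 and MAGEA2 are near-identical copies, so the split of reads among them is uncertain. Neighbours of the same families were silent, with MAGEB1, MAGEA4, MAGEA11, MAGEC1 and MAGEC2 among them. The antigens CTAG1B (NY-ESO-1) and CTAG2 and the germ-cell genes DDX4, DAZL, SYCP1 and PIWIL1 were silent as well. Of the 18 silent members with a listed promoter 15 held 10 or more CG, against 34.8% of silent protein-coding genes. Of the 8 expressed ones 6 did, against 85.9% to 95.0% in the expressed protein-coding classes.

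Oncofetal genes were led by the HMGA and IGF2BP families. HMGA1, an architectural chromatin protein of embryonic and tumour cells, stood at 465 and 539 RPKM, rank 138, and HMGA2 at 64.9 and 65.9 RPKM. IGF2BP3, an RNA-binding protein of fetal tissue, stood at 65.9 and 66.3 RPKM and IGF2BP2 at 45.3 and 48.3 RPKM, while IGF2BP1 was under the threshold with 0.15 and 0.11 RPKM. The imprinted IGF2 stood at 1.52 and 1.27 RPKM and H19 at 0.82 and 0.87 RPKM. AFP and DLK1 were silent. POU5F1, a pluripotency factor with processed copies elsewhere in the genome, was listed at 4.66 and 3.82 RPKM.

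HOX genes, which record position along the body axis, were expressed mostly from the A and B clusters. Of 39 genes 19 were expressed and 7 were silent. HOXB7 was the highest with 31.1 and 33.0 RPKM and did not overlap HOXA9. The next were HOXA10 (15.8 and 14.8 RPKM), HOXB8 (13.4 and 15.4 RPKM) and HOXB6 (12.9 and 12.0 RPKM). Of these HOXA10 and HOXB8 overlapped. HOXB13, a hindgut and prostate gene, stood at 2.78 and 3.07 RPKM. In the D cluster only HOXD8 passed the threshold, with 2.54 and 2.16 RPKM, and HOXD1, HOXD9, HOXD10, HOXD12 and HOXD13 were silent. HOTAIR, the noncoding RNA of the C cluster, was silent, and HOTTIP of the A cluster had 0.040 RPKM in both libraries. Of the 5 silent HOX genes with a promoter in the table, all held 10 or more CG, against 34.8% of silent protein-coding genes. So did the 7 expressed ones, against 85.9% to 95.0% in the expressed protein-coding classes.

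**Figure D4:**
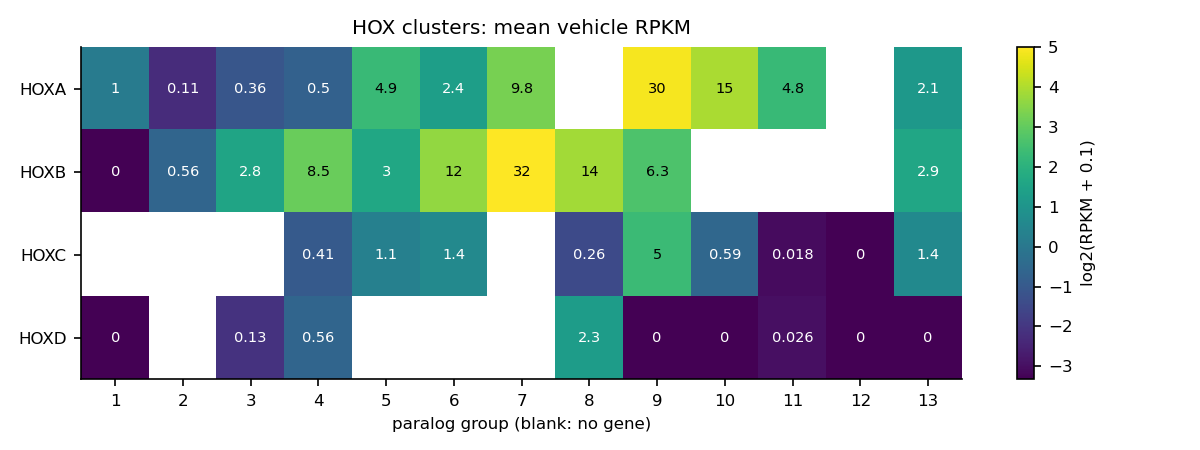
Mean vehicle RPKM of the 39 HOX genes, with clusters as rows and paralog groups as columns, coloured by log2(RPKM + 0.1) and blank where no gene exists. The highest values lie in paralog groups 6 to 10 of the A and B clusters, and 5 of the genes of the D cluster are at 0.

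Markers of other cell types were low. Of 21 fibroblast and mesenchymal markers 7 were expressed, and their RPKM summed to 54.4 and 52.2, mostly from VIM. The silent members were COL3A1, COL1A2, FAP, LUM and DCN, whereas ACTA2 (mean 2.92 RPKM) and FN1 (mean 1.325 RPKM) were expressed. The epithelial-mesenchymal regulators SNAI1 (4.78 and 5.85 RPKM) and ZEB1 (3.27 RPKM in both libraries) were expressed as well. Of 16 leukocyte markers CD68 alone was expressed, with 3.77 and 3.61 RPKM, the list summed to 4.75 and 4.97 RPKM, and CD3E, CD3D and MS4A1 were silent. Of 10 endothelial markers PECAM1 (1.66 and 1.3 RPKM) and FLT1 (1.67 and 1.2 RPKM) were expressed, and CDH5, TEK and TIE1 were silent. With the longest transcript of each symbol 1 endothelial marker was expressed. Of 28 markers of other organs 3 were expressed, muscle actin ACTA1 (8.17 and 7.39 RPKM), the melanocyte antigen MLANA (4.05 and 3.27 RPKM) and the GABA enzyme GAD1 (2.30 and 1.80 RPKM), and 9 were silent.

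Antigen presentation genes were expressed on the class I side. Of 22 measured genes 14 were expressed. B2M, the light chain of class I molecules, stood at 209.6 and 223 RPKM, and HLA-C stood at 89.8 and 94.2 RPKM and HLA-B at 60.2 and 64.9 RPKM, with reads that their similar sequences may share. The class II gene HLA-DRA and its activator CIITA were under 1 RPKM, and so was CD274, which encodes PD-L1, with 0.39 and 0.40 RPKM. Of 20 measured structural and long noncoding RNAs 16 were expressed. GAS5, a host of small nucleolar RNAs, stood at 272 and 269.5 RPKM, MALAT1, a nuclear RNA, at 223 and 195 RPKM, TERC, the telomerase RNA, at 174 and 199.8 RPKM, and SNHG1 at 159 and 163 RPKM.

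The vehicle libraries were then set against the drug-treated libraries, as the mean of the 3 drug groups, with edgeR's quasi-likelihood test and Benjamini-Hochberg adjustment over 15511 genes. A log2 difference is vehicle minus that mean, and genes with an adjusted p under 0.05 are called. This asks where the untreated state stood apart from the treated ones. It does not separate the drugs, whose groups are given side by side in the order 5-fluorouracil then DMSO, DMSO then 3-MB-PP1, and 5-fluorouracil then 3-MB-PP1. Of the genes tested 24.6% (3814) were higher in vehicle and 20.4% (3158) were lower, 44.9% in all. The counts given below for each list are to be read against these shares. Over 2-fold there were 384 higher and 388 lower, and both vehicle libraries lay beyond all 6 others in 2180 of the higher and 1565 of the lower genes. Without vehicle replicate 1 the number lower was 2015. With scaling to the ERCC spike-ins, RNAs of known amount added to each library, 120 genes were higher and 89 lower, and the median of all genes moved from 0.0039 to -0.10. The differences of 59 named genes moved by -0.19 to -0.048, while the median SE over all genes rose from 0.086 to 0.40. Differences are relative to the other genes.

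Cell cycle genes stood highest in vehicle. Of 43 tested 35 were higher and 5 lower, with a median of 0.83 against 0.0039 over all genes. With spike-in scaling 4 were higher and 1 lower, and the median was 0.72. CCNE2, the cyclin that opens S phase, had 21.2 and 22.8 RPKM in vehicle, 2.30 and 2.44, 13.6 and 15.6, and 2.31 and 1.90 RPKM in the drug groups. Its difference was 2.44 (SE 0.076, adjusted p = 5.6e-19). E2F2, a transcription factor of S-phase genes, had 9.74 and 9.88 RPKM in vehicle against 1.48 and 1.3, 6.19 and 6.11, and 1.44 and 1.59 RPKM, a difference of 2.09 (SE 0.072, adjusted p = 3.48e-18). In both genes the vehicle libraries lay above all others, and the group given 3-MB-PP1 alone lay nearest. The same held for E2F1 (1.88) and for CDC25A (1.93), a phosphatase that activates cell cycle kinases. The mitotic cyclin CCNB1 (0.81), the helicase gene MCM4 (1.31) and PCNA (0.59) were higher by less, and with spike-in scaling these 3 had 0.69, 1.2 and 0.47 and were not called.

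The members lower in vehicle were inhibitors and G1 genes. CDKN1A (hg19 chr6:36646487-36655116) had 82.7 and 85.2 RPKM in vehicle against 701 and 650.0, 75.4 and 72.7, and 371 and 360 RPKM. Its difference was -1.62 (SE 0.043, adjusted p = 2.95e-20), but the vehicle libraries lay above the group given 3-MB-PP1 alone and below both groups given 5-fluorouracil. MDM2 showed the same order, with a difference of -1.01. CCND1, with 119.7 and 135 RPKM in vehicle, was below all 6 other libraries, with a difference of -0.68. With spike-in scaling CDKN1A kept its call, and MDM2 (-1.12) and CCND1 (-0.77) did not, though their differences were no smaller.

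Replication-dependent histone genes, which supply chromatin in S phase, filled much of the list of the largest differences. Of the 10 named genes highest in vehicle, 6 were histone genes, and INSIG1, ZNF367, RIBC2 and CCNE2 were the others. HIST1H3J (hg19 chr6:27858093-27858570) had 374 and 405 RPKM in vehicle against 41.2 and 31.9, 203 and 213, and 27.6 and 35.4 RPKM, a difference of 2.68 (SE 0.062, adjusted p = 4.82e-21). Over 72 histone genes the RPKM summed to 19534 and 21328 in vehicle, 3960 and 3508, 12673 and 12197, and 2321 and 2999.8 in the drug groups, and these sums are descriptions. Histone genes are near-identical copies, and reads may be shared among them. ZNF367, a zinc finger gene, had 16.5 and 16.6 RPKM in vehicle against 1.09 and 1.2, 11.4 and 11.6, and 1.08 and 1.00 RPKM, a difference of 2.82 (SE 0.072, adjusted p = 2.24e-20). INSIG1, which restrains cholesterol synthesis, had 23.6 and 23.1 RPKM in vehicle against 3.29 and 2.99, 9.0 and 10.1, and 2.87 and 2.41 RPKM, a difference of 2.48. These calls held with spike-in scaling.

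The 10 named genes lowest in vehicle were all under 1 RPKM in both vehicle libraries. TAS2R5, a bitter taste receptor, had 0 counts in both vehicle libraries and 0.52 and 0.57, 1.07 and 1.16, and 1.37 and 1.81 RPKM in the drug groups. Against the floor of 3 counts per library, an RPKM of 0.20, it was at least 5.51-fold lower in vehicle. MGAM, a brush-border maltase, had 0.070 and 0.034 RPKM in vehicle against 0.18 and 0.10, 2.40 and 2.05, and 2.18 and 2.18 RPKM, a difference of -4.03 (SE 0.33, adjusted p = 1.68e-10). SELPLG, a selectin ligand of leukocytes, differed by -3.80, and IFNE, an epithelial type I interferon, by -2.86 with 0.72 and 0.51 RPKM in vehicle and up to 6.88 RPKM after both drugs. IFNE overlaps LOC554202 on the same strand, so its reads may belong to that gene. MSH4, a meiotic relative of the mismatch repair genes, differed by -2.20 with 0.40 and 0.50 RPKM in vehicle. These genes were chosen with both vehicle libraries below all 6 others and a mean of at least 1 RPKM over the drug-treated libraries. That separation therefore follows from the choice and is no result.

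Genes of the mismatch repair list, MGMT included, were higher in vehicle in 5 of 9 cases and lower in 1. MSH6 had 63.7 and 64.0 RPKM in vehicle against 14.4 and 14.4, 45.2 and 45.8, and 10.1 and 11.1 RPKM, a difference of 1.77 (SE 0.043, adjusted p = 6.09e-21). EXO1, the exonuclease of the pathway, differed by 1.89. With spike-in scaling MSH6 and EXO1 kept their calls.

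Of 35 WNT and stem genes tested 16 were higher in vehicle and 7 lower, with a median of 0.16, which stayed positive at 0.049 with spike-in scaling. AXIN2 had 5.58 and 4.91 RPKM in vehicle against 3.45 and 2.89, 2.37 and 3.01, and 2.02 and 1.82 RPKM, a difference of 1.1 (SE 0.10, adjusted p = 1.81e-09). TNFRSF19, a WNT-induced receptor of stem cells, differed by 1.76 at levels under 1 RPKM. MYC and DKK1 differed by 0.50 each, but their vehicle libraries lay between the groups, MYC with 219 and 209 RPKM after 5-fluorouracil alone and 82.5 and 83.6 RPKM after 3-MB-PP1 alone. With spike-in scaling TNFRSF19 kept its call, and AXIN2 (0.94), MYC (0.41) and DKK1 (0.40) did not.

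Identity genes differed in both directions, and over all genes tested 24.6% were higher and 20.4% lower in vehicle. Of 14 intestinal identity genes tested 5 were higher and 1 lower in vehicle. FOXA1 (1.04) and GATA6 (0.97), transcription factors of gut endoderm, were higher in vehicle than in all other libraries. CDX2 had a difference of 0.0054 (SE 0.095, adjusted p = 0.97). Of 34 epithelial genes tested 8 were higher and 15 lower, with a median of -0.15. KRT8 had 559 and 591 RPKM in vehicle against 1021 and 1017, 622 and 639, and 963 and 965 RPKM, a difference of -0.54 (SE 0.034, adjusted p = 1.41e-12). KRT18 differed by -0.47, EPCAM by 0.17 and ESRP1 by 0.75, and CDH1 was not called with -0.13 (adjusted p = 0.20). The mesenchymal marker VIM was higher in vehicle by 0.76, with libraries that overlapped those given 3-MB-PP1 alone. With spike-in scaling in edgeR no intestinal or epithelial gene was called, and 3 and 2 had an unadjusted p under 0.05. DESeq2 called 3 intestinal genes and 19 epithelial ones. The differences under spike-in scaling were 0.91 for FOXA1, 0.81 for GATA6, 0.64 for ESRP1 and -0.64 for KRT8.

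Of the detectable genes 10 of 12 cancer-testis, 18 of 26 HOX and 11 of 14 oncofetal genes were not called. Over all genes tested 8539 of 15511 were likewise not called, with 24.6% higher and 20.4% lower in vehicle. Of 20 tested genes reported as methylated at their promoters 7 were higher, 4 lower and 9 not called. Of 12 cancer-testis genes tested 2 were higher in vehicle, PRAME (0.67) and MAGEA6, and none was lower. MAGEB2 ranged from 91.2 to 99.0 RPKM in the drug groups, and its difference was -0.060 (SE 0.045, adjusted p = 0.30). Of 26 HOX genes tested 2 were higher, HOXA13 with 0.78 among them, and 6 were lower, all of the B cluster and led by HOXB3 with -0.76. HMGA1 was not called (-0.0099, adjusted p = 0.88), and IGF2BP3 was higher by 0.45. None of these calls held with spike-in scaling. Of the 4960 genes silent in vehicle 2900 had 0 counts in all 8 libraries, and 14 were expressed in both libraries of a drug group.

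Among the abundant classes the differences were small. Of 79 ribosomal protein genes 8 were higher and 33 lower in vehicle, with a median of -0.081, and RPL10A, at 790.6 and 847 RPKM, was the furthest above with 0.50. With spike-in scaling in edgeR none was called and none had an unadjusted p under 0.05, with a median of -0.18, while DESeq2 called 5 higher and 30 lower. Of 26 glycolysis genes tested 14 were lower and the lactate transporter SLC16A1 (0.33) was the 1 higher. With spike-in scaling 1 was lower and none higher. GAPDH had a difference of -0.36, with 2717 and 2938 RPKM in vehicle against 4489 and 4136, 3040.2 and 2956, and 3962 and 3948 RPKM. Of 31 genes in the translation factor list 14 were higher and 8 lower, and their median of 0.069 became -0.029 with spike-in scaling. Of the genes named here for their level, EPHA2 (-1.34) and TAP1 (-1.02), a peptide transporter of antigen presentation, were lower in vehicle, while FGFR3 (1.19) and SNHG12 (1.41) were higher. TAP1 was at the level of the group given 3-MB-PP1 alone, 14.3 and 13.1 against 13.3 and 13.5 RPKM. CDK7 differed by 0.27 and lay between the groups. NEAT1, a nuclear noncoding RNA, had a difference of -0.78. Of these named genes SNHG12 alone kept its call with spike-in scaling, where EPHA2 had -1.43, TAP1 -1.15, GAPDH -0.46, NEAT1 -0.94 and FGFR3 1.06.

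**Figure D5:**
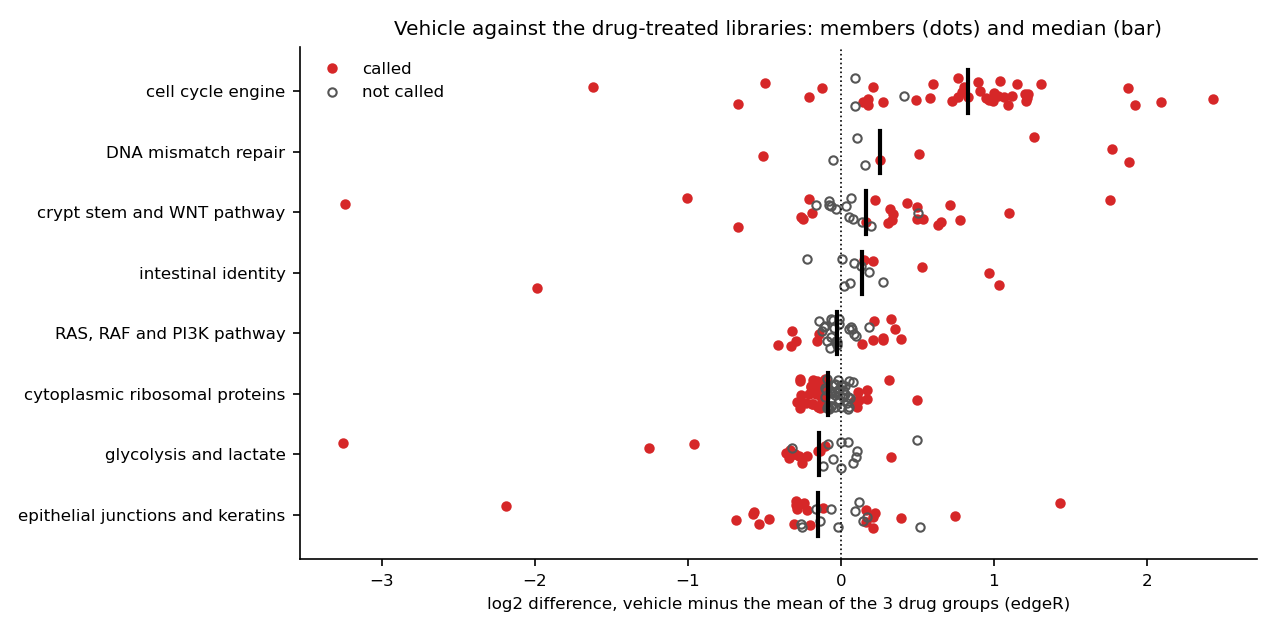
Log2 difference of vehicle minus the mean of the 3 drug groups (edgeR) for every tested member of 8 gene lists, filled red where called and open where not, with a bar at each list's median and a dotted line at 0. Cell cycle genes lie mostly above 0 (median 0.83), and the ribosomal protein and glycolysis lists lie near 0 (medians -0.081 and -0.14).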

How the data were processed

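The total RNA of 8 libraries was sequenced, and the 2 vehicle libraries are described. Each deposited table held whole read counts per transcript, not normalized, and RPKM values that the authors made from those counts by transcript length and a constant total per library. TopHat2 2.0.13 and the build hg19 are named in the submitters' processing notes. The counting program, strand setting and annotation come under what is not given in the sources used here. A table listed 41735 sequences, 92 of them ERCC spike-ins. Of 41643 RefSeq transcripts 6260 had no symbol, and 5902 were named by accession from RefSeq's gene table (GRCh38.p14, names only). The 358 left unnamed took 1.13% and 1.12% of the vehicle gene counts. Each symbol was represented by its transcript of highest mean count over the 8 tables, which gave 23545 genes, 482 of them at several places. Counts of ERCC sequences were 2.18% to 4.16% of the totals.

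The contrast was fitted with edgeR 4.0.16 in R 4.3.3 (filterByExpr, TMM, quasi-likelihood, 1 model of 4 groups, 4 residual degrees of freedom, biological coefficient of variation 0.042), and checked on simulated data. DESeq2 1.42.0 was an alternative. P-values are two-sided. The members, the 25 gene lists and the promoter pairs were chosen with earlier results of these data known, and lists are described by counts and medians without a set test. The lists covered epithelial, intestinal, colonocyte and enterocyte, secretory and tuft, crypt stem and WNT, reported mutated, CDK7 and fluorouracil, mismatch repair, reported promoter methylation, cancer-testis, oncofetal, HOX, fibroblast, leukocyte, endothelial, other organ, receptor tyrosine kinase, RAS and PI3K, cell cycle, glycolysis, translation factor, ribosomal protein, noncoding RNA, antigen presentation and mucin genes. Named genes were the 20 most abundant of at least 300 bases and 6 shorter ones, list members that were highest, silent or defining, and the 10 largest called differences in each direction with libraries apart; not all are printed, and some list members that are counted are not reported here by name. List members whose contrast is given were chosen after their values were seen. Alternatives changed the kept transcript, thresholds, scaling, low-count filter, replicate block and libraries. Intervals and floors cover counting error alone.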

Additional observations from a re-analysis of the deposited data

Results flagged for a closer look

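Transcripts that carried no gene symbol and matched no entry of RefSeq's gene table were left out of the ranking, and a signal was present in them. Of 358 such transcripts 186 exceeded 1 RPKM in both vehicle libraries, and 185 of these had more than the 3 counts that a count of 0 allows in each library. The highest had a mean of 525 RPKM and the median was 1.45 RPKM. They were looked at because no comparison used them.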

How the results depend on the processing

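The number of expressed genes lay between 12705 and 14135 over the alternatives, and between 13137 and 13204 with 1 vehicle library left out. The share of RPKM in the 10 most abundant genes was 11.6% with short transcripts included and 7.60% to 7.91% with 1 vehicle library left out. Scaling to the ERCC spike-ins left 120 genes higher and 89 lower in vehicle, all called in the same direction under TMM, and moved the median of all genes to -0.10. With 1 library left out in turn, 2890 to 3877 genes were higher and 2015 to 3174 lower, the lowest without vehicle replicate 2 and without vehicle replicate 1 respectively; the lone vehicle library is then assumed to vary like the other groups. DESeq2 called 2897 higher and 2247 lower. Same-numbered libraries did not deviate together, with correlations between -0.063 and 0.044 over 6 pairs of groups. No shared effect of the number was therefore visible, but whether same-numbered samples were handled together is not given. With the number as a replicate block 3837 genes were higher and 3165 lower. Spike-in scaling raised the median SE from 0.086 to 0.40. Among named genes, 28 of 59 lost their call with spike-in scaling, and HBG2 lost it with DESeq2 and without vehicle replicate 2; none reversed. At the depth of the vehicle libraries, levels under 1 RPKM rest on few reads, and 583 genes passed the threshold in 1 library alone.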

Other observations

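Gene families taken by symbol, some of which share members with the lists of the report, fell into 3 kinds in the vehicle libraries. Housekeeping complexes were expressed in full or nearly so. All 76 mitochondrial ribosomal protein genes (median 51.8 RPKM) and all 37 genes of respiratory complex I (median 63.8 RPKM) were expressed, and 44 of 48 proteasome subunits were. Tissue-restricted families were closed. Of 397 olfactory receptors 10 were expressed and 345 were silent, and of 90 keratin-associated proteins, 40 beta-defensins and 18 late cornified envelope proteins none was expressed. Of 17 type I interferon genes none was expressed and 13 were silent. Other families were partly open, with 374 of 529 zinc finger genes, 197 of 348 solute carriers, 14 of 55 cytochromes P450, 9 of 56 keratins and 6 of 23 claudins expressed. The olfactory receptors were led by OR51B5 and OR51B4, which lie in the β-globin region, with a highest mean of 11.9 RPKM.

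Expressed genes were spread unevenly over chromosomes. The share was 67.0% of 941 genes on chromosome 16 and 63.1% of 542 on chromosome 22, and 40.0% of 998 on the X chromosome and 39.5% of 299 on chromosome 21. These shares follow the annotation as well as the cells, and were not tested. By class, 60.8% of 18807 protein-coding genes, 31.7% of 1782 long noncoding RNA genes and 7.97% of 1293 microRNA entries were expressed.

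ZNF485, a zinc finger gene, stood at 1206 and 1115 RPKM, rank 43 of the transcripts of at least 300 bases, against a median of 2.76 RPKM over 529 zinc finger genes.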
